A study of Mus musculus with 6 samples.

Results

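The Ifitm genes Ifitm1, Ifitm2, Ifitm3 and Ifitm6 were followed in RNA of mouse haematopoietic stem cells (HSCs) that had been separated by TMRM, a dye that collects in mitochondria in proportion to their membrane potential. They are 4 of the 28786 genes in the expression table and were found in it by their Ensembl gene identifiers. The 4 were picked with their levels in view, because Ifitm1 and Ifitm3 were far lower in the TMRM-high libraries. Their differences between TMRM-high and TMRM-low libraries are therefore given as a description, with no test. Libraries were made from wild-type C57BL/6 mice aged 6 to 8 weeks, 3 from cells with a high and 3 from cells with a low TMRM signal. Each library came from 1500 sorted bone marrow cells in the gate Lin- Sca-1+ c-Kit+ CD48- CD150+, the same for both groups. All 6 were sequenced after a low-input protocol with PCR amplification. The 2 groups are read only against each other, and no unsorted cells were analysed here. Whether each library stands for a separate mouse or for pooled cells is not in the labels. For other genes below, a p-value therefore covers the spread among these 6 libraries alone, and that spread may be technical.

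Ifitm proteins are small membrane proteins that sit at the cell surface and in endosomes and lysosomes, where they hinder the fusion of enveloped viruses with the host membrane. Ifitm1, Ifitm2, Ifitm3 and Ifitm6 lie in a gene cluster. Several of the genes are induced by interferons through the receptor, JAK kinases and STAT proteins, whose complexes bind the interferon-stimulated response element (ISRE) or the gamma-activated site (GAS) in promoters. Some stem cells, embryonic and adult, are known to hold a raised level of interferon-stimulated genes, Ifitm genes included, without infection, and Ifitm1 and Ifitm3 have been used as markers of HSCs and of early germ cells.

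Estimated counts summed to between 14270069 and 22070594 per library. TMRM-high libraries were far more alike than TMRM-low ones. Pairs of TMRM-high libraries had a chi-square per degree of freedom of 3.98 to 6.74 (genes with 20 or more counts), and pairs of TMRM-low libraries one of 46.0 to 51.4. The median coefficient of variation (CV) of 10358 genes with a mean of at least 5 CPM (counts scaled to the library's size) was 6.18% among the TMRM-high and 22.4% among the TMRM-low libraries. Counts of called genes were therefore also taken with the TMRM-high libraries summed into 1, a fit whose spread comes from the TMRM-low libraries alone. Of the genes behind the sort, Cd48 (124 CPM per kilobase of exon in TMRM-high, 115 in TMRM-low libraries) was above Slamf1, the gene of CD150 (0.899 and 0.834), although the gate took cells lacking CD48 and carrying CD150. Surface protein was not measured here.

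The 4 genes lie within 63.1 kb of chromosome 7 on GRCm38 (GENCODE M21 annotation). Ifitm2 (ENSMUSG00000060591, chr7:140954837-140955987, minus strand, 2 exons) comes first, followed by Ifitm1 (ENSMUSG00000025491, chr7:140967221-140969825, plus strand, 2 to 3 exons depending on the transcript). Ifitm3 (ENSMUSG00000025492, chr7:141009586-141010770, minus strand, 2 exons) and Ifitm6 (ENSMUSG00000059108, chr7:141015699-141017924, minus strand, 2 to 3 exons) follow. The promoters are shown because the members differed in how far apart the groups were and because interferon-responsive elements can be read in the sequence. Each stretch holds the 250 bases before and 50 bases after the RefSeq transcription start on GRCm38.p6, written 5′ to 3′ on the gene's own strand, and capitals mark matches to the ISRE core, which is GAAA, any 2 bases and GAAA again, or to the GAS letters TTCNNNGAA. The windows are chr7:140967826-140968125 for Ifitm1, chr7:140955912-140956211 for Ifitm2, chr7:141010695-141010994 for Ifitm3 and chr7:141016843-141017142 for Ifitm6.
Ifitm1: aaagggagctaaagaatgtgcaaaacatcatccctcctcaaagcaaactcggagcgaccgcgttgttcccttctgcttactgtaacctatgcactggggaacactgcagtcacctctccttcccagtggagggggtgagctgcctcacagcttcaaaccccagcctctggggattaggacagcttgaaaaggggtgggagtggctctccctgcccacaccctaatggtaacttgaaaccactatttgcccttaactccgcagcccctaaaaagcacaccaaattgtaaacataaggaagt
Ifitm2: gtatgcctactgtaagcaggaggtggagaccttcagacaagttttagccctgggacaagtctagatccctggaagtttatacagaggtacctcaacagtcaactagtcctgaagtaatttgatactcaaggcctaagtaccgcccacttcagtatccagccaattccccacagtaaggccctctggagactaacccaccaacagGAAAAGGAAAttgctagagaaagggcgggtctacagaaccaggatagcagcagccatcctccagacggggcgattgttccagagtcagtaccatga
Ifitm3: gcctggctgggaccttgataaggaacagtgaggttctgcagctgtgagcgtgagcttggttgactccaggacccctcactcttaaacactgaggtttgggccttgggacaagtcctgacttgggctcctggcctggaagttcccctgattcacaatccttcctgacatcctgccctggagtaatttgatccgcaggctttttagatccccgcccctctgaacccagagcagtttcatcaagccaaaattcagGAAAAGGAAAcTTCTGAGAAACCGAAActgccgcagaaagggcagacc
Ifitm6: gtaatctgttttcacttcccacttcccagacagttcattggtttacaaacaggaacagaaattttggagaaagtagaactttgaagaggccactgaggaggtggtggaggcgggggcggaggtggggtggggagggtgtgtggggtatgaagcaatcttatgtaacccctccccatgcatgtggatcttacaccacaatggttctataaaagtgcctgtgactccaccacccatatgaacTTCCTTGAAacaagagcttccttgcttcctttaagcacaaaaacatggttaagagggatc

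Ifitm3 held 2 ISRE matches, at bases 3 to 12 and 20 to 29 counted from 1 at the start site. A GAS match at bases 14 to 22 of Ifitm3 overlapped the second of them. Ifitm2 held 1 ISRE match, at -46 to -37. Ifitm6 held 1 GAS match, at -10 to -2, and Ifitm1 held none of these letters in its window. Both strands were searched. Over 32851 promoters of the same length, 3.44% held an ISRE match and 8.30% a GAS match. These matches describe letters and not bound sites. The windows are set by RefSeq starts, which lie inside the longer GENCODE genes for all 4 members, farther in for Ifitm1 and Ifitm6. Which bases fall in a window, and their positions, depend on the start used.

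Ifitm1 had the widest gap between the groups among the 4 members. Its levels were 124, 120 and 121 CPM in TMRM-high libraries and 640, 596 and 689 CPM in TMRM-low libraries. All TMRM-low libraries thus lay far above all TMRM-high libraries. Means were 122 ± 1.73 against 641 ± 46.5 CPM (SD, n = 3 per group), a log2 fold change of TMRM-high minus TMRM-low of -2.40 (SE 0.0714), or 5.27-fold lower. In bulk libraries, fewer cells that carry a transcript and less of it per cell cannot be told apart. Among the 13662 genes that passed the filter on low counts, ordered by mean CPM, Ifitm1 stood at rank 171 in TMRM-low and at rank 1473 in TMRM-high libraries.

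Ifitm3, the member best known for blocking influenza virus entry from endosomes, had 163, 168 and 162 CPM in TMRM-high libraries and 562, 645 and 585 CPM in TMRM-low libraries. Again the groups did not overlap. The means were 164 ± 3.13 and 597 ± 42.9 CPM (SD, n = 3), and the log2 fold change was -1.86 (SE 0.0699), 3.64-fold lower in TMRM-high libraries. By mean CPM it ranked 181 among TMRM-low and 983 among TMRM-high levels.

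Ifitm2, a close relative of Ifitm3 that acts mostly in endosomes, had 404, 405 and 407 CPM in TMRM-high libraries. In TMRM-low libraries it had 607, 591 and 568 CPM, which left a clear but smaller gap. The log2 fold change was -0.54 (SE 0.0520), 1.45-fold lower. Ifitm2 kept a high rank in both groups, 184 in TMRM-low and 285 in TMRM-high libraries.

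Ifitm6, a member found mainly in myeloid cells and less studied, was the only one whose groups overlapped. It had 5.76, 8.10 and 6.04 CPM in TMRM-high libraries and 12.5, 10.7 and 3.21 CPM in TMRM-low libraries, from 59 to 216 counts per library. TMRM-low replicate 3 was the lowest of all 6 libraries and the other TMRM-low libraries were the highest. Its log2 fold change was -0.41 (SE 0.520), -0.80 without TMRM-low replicate 3 and -0.06 without TMRM-low replicate 1, so its size rests on single libraries.

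**Figure D1:**
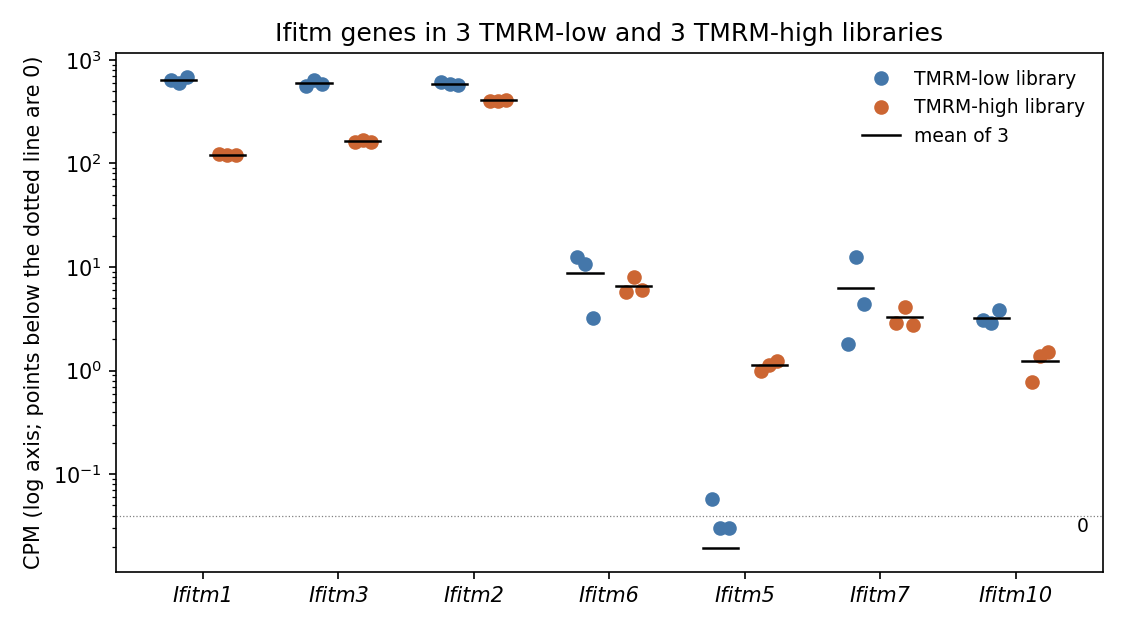
Levels of every Ifitm gene in the table in CPM (log axis) for 3 TMRM-low and 3 TMRM-high libraries, with 1 point per library and a bar at the mean of 3; points below the dotted line are at 0. Ifitm1 and Ifitm3 lie at 562 to 689 CPM in the TMRM-low and at 120 to 168 CPM in the TMRM-high libraries, Ifitm2 shows a smaller gap, and the points of Ifitm6 and Ifitm7 overlap.

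The spread among TMRM-high libraries was narrow for the abundant members. The CV of Ifitm1 was 1.42% among TMRM-high and 7.25% among TMRM-low libraries, where counting noise alone would give 2.10% and 0.950%. For Ifitm3 the CV was 1.91% and 7.18%, with counting noise of 1.81% and 0.987%. Ifitm2 had a CV of 0.376% in TMRM-high libraries, below the 1.15% of counting noise, and 3.33% in TMRM-low libraries against 0.994%. The TMRM-high libraries thus differed in these 3 genes by about as little as counting allows, while the TMRM-low libraries differed by more. Ifitm6 had a CV of 19.3% and 56.0%, above counting noise of 8.98% and 8.19%. PCR copies are not independent molecules, so these noise values cover counting only.

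All 4 members passed the filter on low counts. Of the 13662 genes tested with edgeR's quasi-likelihood test, 5.12% were called lower in TMRM-high libraries and 5.84% higher, and 3 of the 4 members met the rule for lower. The members were chosen from this same comparison, so nothing is read from that count. For 3 of the 4 every TMRM-high library lay below every TMRM-low library, a pattern shown by 17.0% of tested genes. With the TMRM-high libraries summed into 1, 0.223% of 15226 tested genes were called lower and 0.525% higher. Ifitm1 and Ifitm3 met the rule for lower there, and nothing is read from that count either, since both were chosen for their decrease in these libraries. In order of decrease, Ifitm1 ranked 163, Ifitm3 305, Ifitm2 2472 and Ifitm6 3163 of 13662. Of the 1880 genes with a mean of at least 100 CPM in TMRM-low libraries, 4 others had a decrease as large as that of Ifitm1 and 9 others one as large as that of Ifitm3.

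The members did not keep their proportions between the groups. Their summed level was 696, 701 and 696 CPM in TMRM-high libraries and 1821, 1842 and 1845 CPM in TMRM-low libraries. This sum varied less between TMRM-low libraries (1836 ± 13.3 CPM) than Ifitm1 or Ifitm3 did alone (SD, n = 3). When the 4 rows were added before the fit, the log2 fold change was -1.39 (SE 0.0403). Ifitm1 made up 34.9% ± 2.50 of the sum in TMRM-low libraries and 17.4% ± 0.300 in TMRM-high libraries (SD, n = 3). Ifitm2 went the other way, with 32.0% ± 1.27 of the sum in TMRM-low and 58.1% ± 0.357 in TMRM-high libraries. Ifitm3 took 32.5% ± 2.19 and 23.5% ± 0.355 and Ifitm6 0.481% ± 0.271 and 0.951% ± 0.179.

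**Figure D2:**
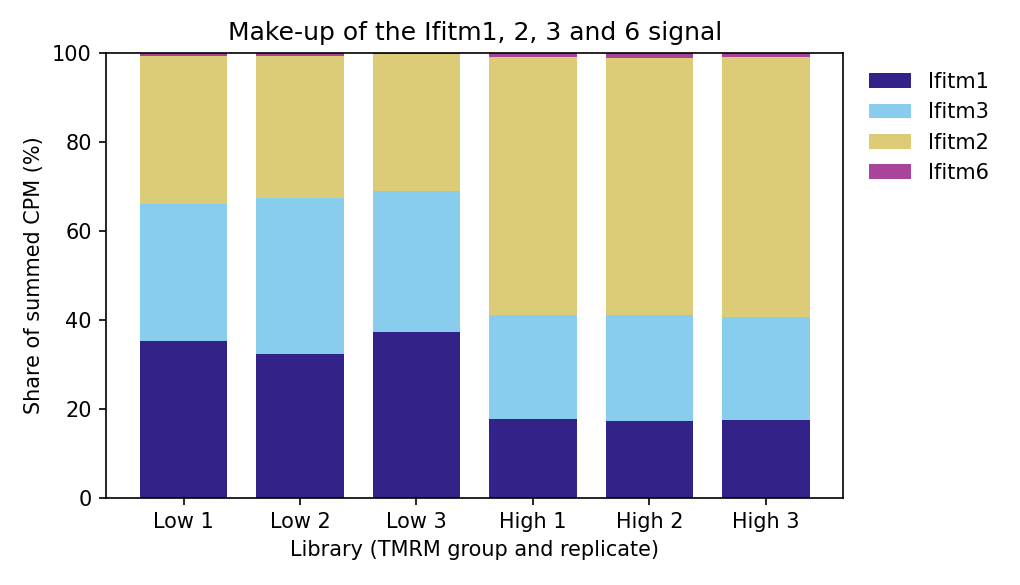
Share of the summed CPM of Ifitm1, Ifitm2, Ifitm3 and Ifitm6 (y axis, percent) taken by each gene in each of the 6 libraries (x axis), as stacked bars that reach 100%. Ifitm1, Ifitm3 and Ifitm2 take similar parts in the TMRM-low libraries, and Ifitm2 takes 57.8% to 58.5% in the TMRM-high libraries.

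Levels of different genes were compared per kilobase of exon, since longer transcripts yield more fragments. The length joined all annotated exons, 1094 bases for Ifitm1 against 655 for Ifitm2 and 678 for Ifitm3. By CPM alone Ifitm1 was the highest member in TMRM-low libraries (641, against 597 for Ifitm3 and 588 for Ifitm2). Its place there and its ratios to the others thus depend on that length, and which transcripts were in use was not tested. In the TMRM-low group Ifitm2 (898 ± 29.9 CPM per kilobase) and Ifitm3 (881 ± 63.2) did not differ beyond their spread. Ifitm1 (586 ± 42.5) came next and Ifitm6 (9.74 ± 5.45) last. In TMRM-high libraries the order was Ifitm2 (619 ± 2.33), Ifitm3 (242 ± 4.61), Ifitm1 (111 ± 1.58) and Ifitm6 (7.33 ± 1.41), with each neighbour apart from the next by more than the spread. The ratio of Ifitm2 to Ifitm3 per kilobase was 1.12, 0.948 and 1.00 in the TMRM-low libraries. In TMRM-high libraries it was 2.57, 2.50 and 2.60. Ifitm2 to Ifitm1 went from 1.54 ± 0.145 in TMRM-low to 5.56 ± 0.0906 in TMRM-high libraries, and Ifitm3 to Ifitm1 from 1.51 ± 0.205 to 2.18 ± 0.0652 (SD, n = 3).

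Close copies can draw reads from one another, because the authors' quantification divides reads between similar transcripts. Of the distinct 31-base words of the GENCODE transcripts, Ifitm1 shared 11.6% with other genes, Ifitm3 20.5%, Ifitm2 55.5% and Ifitm6 none of its 873. Most of the words that Ifitm2 shared, 238 of 347, were with Gm45717, a same-strand gene model that overlaps both Ifitm2 and Ifitm5 and has no row in the table analysed here. Of the 3 abundant members, Ifitm2 thus has the level most open to such sharing. Between members the overlap was small, 35 words for Ifitm1 with Ifitm3 and 10 with Ifitm2, and 39 for Ifitm2 with Ifitm3. Of 11 genes outside the family that share words with a member, 5 have a row. The 4 processed pseudogenes among them had no count in any library, and the other was Taf6l, which shares 5 words with Ifitm2.

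The other Ifitm genes of the table were Ifitm5, Ifitm7 and Ifitm10. Ifitm5 encodes a bone-restricted member that is expressed in osteoblasts, and it is the neighbour of Ifitm2 (chr7:140948958-140950291, minus strand). It had 0.998, 1.13 and 1.25 CPM in TMRM-high libraries and 0.0579, 0 and 0 CPM in TMRM-low libraries. That is the direction opposite to the 4 members, at a low level of 62 counts against 1. The ratio was 57.3 with a 95% exact counting interval of 9.91 to 2298, from 36.9 to 61.0 when any library but TMRM-low replicate 1 was left out. Without TMRM-low replicate 1, whose single count it rests on, the bound, set by 3 counts in the TMRM-low group, was at least 12.7-fold higher. Only its TMRM-high level brought Ifitm5 past the filter on low counts, so it could hardly be called in the other direction. It passed the test (edgeR adjusted p = 0.014), and nothing is read from that call. Leaving out any 1 TMRM-high library ended the call, as did summing those libraries (edgeR adjusted p = 0.94). Of its 31-base words, 27.2% are shared with Gm45717, so these counts are uncertain.

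Ifitm7, on chromosome 16, had 2.90, 4.10 and 2.78 CPM in TMRM-high against 1.79, 12.5 and 4.35 CPM in TMRM-low libraries. The groups overlapped and the gene did not pass (log2 fold change -0.93, SE 0.700, edgeR adjusted p = 0.47). Ifitm10, farther along chromosome 7, had 0.771, 1.38 and 1.53 CPM in TMRM-high against 3.07, 2.87 and 3.81 CPM in TMRM-low libraries. Although those groups did not overlap, it did not pass either (-1.40, SE 0.531, edgeR adjusted p = 0.14).

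The genes around the cluster were examined to see how far along the chromosome a difference of this kind extended. Within 200 kb of the outermost members lay 26 other genes, of which 20 were tested. Apart from Ifitm5, no neighbour was called by edgeR in either direction, against 5.12% of all tested genes lower and 5.84% higher. At an unadjusted p under 0.05, 2 were lower and 1 besides Ifitm5 was higher. With DESeq2 and with limma voom 2 were lower, beside 1337 and 880 of all 13662 tested genes, and none but Ifitm5 was higher. The 2 lower were Sirt3 and Lrrc56 each time and the 1 higher was Ptdss2, a phospholipid synthesis gene (0.55, edgeR adjusted p = 0.17), all named after their values were seen. Sirt3 encodes a mitochondrial deacetylase (-0.49, SE 0.130, edgeR adjusted p = 0.052), and Lrrc56 a protein of cilium assembly (-1.40, SE 0.426, edgeR adjusted p = 0.078). The median log2 fold change of the 20 was -0.28, beside -0.03 over all tested genes. Groups did not overlap for 5 neighbours that were lower and 3 that were higher, against 17.0% and 18.4% of all tested genes. These counts among 20 genes lie near the shares of all genes and set no limit to how far the difference extends. On the side of Ifitm2, Pgghg, which encodes a glucosidase that acts on hydroxylysine-linked sugars, overlapped between the groups (-0.34, SE 0.285, edgeR adjusted p = 0.51). On the side of Ifitm6, the nearest tested gene was B4galnt4, a glycosyltransferase gene (-0.56, SE 0.380, edgeR adjusted p = 0.41). Irf7, a master transcription factor of the interferon response, lies 245 kb past Ifitm6 and is described with the signalling genes.

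**Figure D3:**
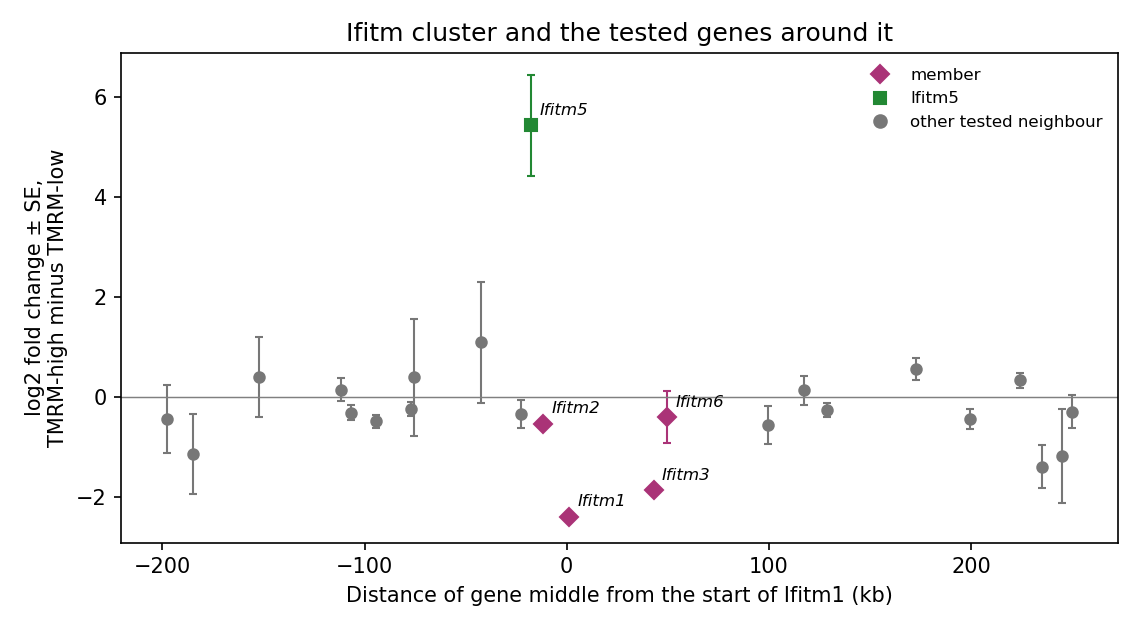
Log2 fold change of TMRM-high minus TMRM-low libraries (y axis, bars are the SE) against the distance of each gene's middle from the start of Ifitm1 in kb (x axis), for the members, Ifitm5 and the other tested genes within 200 kb. Ifitm1 (-2.40) and Ifitm3 (-1.86) lie below the other points and Ifitm5 (5.43 as fitted, resting on 1 count in the TMRM-low group) above them, while the neighbours scatter around a median of -0.28.

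Interferon-induced genes outside the family were lower too. Of 54 effector genes of the interferon response, among them antiviral proteins, ubiquitin-like modifiers, guanylate-binding GTPases and antigen-processing genes, 52 were tested. With edgeR, 35 fell, against 5.12% of all tested genes, and none rose. None rose at an unadjusted p under 0.05, with DESeq2 or with limma voom. All 52 had a negative log2 fold change, where 52.8% of all tested genes did, and the median was -1.03 beside -0.03 over all genes. In 43 of the 52 every TMRM-high library lay below every TMRM-low library, against 17.0% of all tested genes. The list was chosen with a decrease of interferon genes in these libraries already known, so its direction is not independent evidence. With the TMRM-high libraries summed, 3 of the 35 passed, against a background of 0.223%.

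Ifi27, a gene strongly induced by type I interferon, had 93.2, 87.9 and 91.2 CPM in TMRM-high against 296, 249 and 275 CPM in TMRM-low libraries (log2 fold change -1.59, SE 0.0875, edgeR adjusted p = 5.7e-05). Rtp4, a receptor chaperone induced by type I interferon, had 15.7, 15.1 and 17.8 CPM against 101, 80.9 and 109 CPM (-2.58, SE 0.164, edgeR adjusted p = 1.0e-04). These values place Rtp4 close to Ifitm1 in size of change, at a lower level. Ifi44 was at 7.72 ± 0.728 against 43.3 ± 2.80 CPM (-2.48, SE 0.194, edgeR adjusted p = 0.00025). Ifi27l2a was at 13.3 ± 1.97 against 62.2 ± 3.45 CPM (-2.22, SE 0.174, edgeR adjusted p = 0.00025). In none of these 4 genes did the groups overlap. After summing the TMRM-high libraries, Ifi44 and Ifi27l2a did not pass (edgeR adjusted p = 0.076 and 0.050). Decreases at least as large as that of Ifitm1 were seen in 6 of the 52 effectors and at least as large as that of Ifitm3 in 10.

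Genes of interferon receptors, JAK kinases, STAT proteins and interferon regulatory factors were lower in part. Of 18 tested, 6 fell, against 5.12% of all tested genes, and 11 did not pass, with a median of -0.39 beside -0.03 over all genes. The other 1 rose, a share near the 5.84% of all tested genes. Irf7, itself induced by interferon, had 9.57, 8.98 and 8.96 CPM in TMRM-high against 75.9, 55.5 and 79.6 CPM in TMRM-low libraries (-2.94, SE 0.194, edgeR adjusted p = 0.00012). Its decrease was larger than that of Ifitm1, and it alone of the list passed with the TMRM-high libraries summed (adjusted p = 0.027). Irf8, a factor of myeloid and B cell development as well as interferon signalling, was at 173 ± 9.39 against 323 ± 22.3 CPM (-0.90, SE 0.0793, edgeR adjusted p = 0.00045). The receptor gene Ifnar2 was at 77.8 ± 6.47 against 121 ± 6.30 CPM (-0.63, SE 0.102, edgeR adjusted p = 0.0080), and lost its call without TMRM-high replicate 1 or 2. The gene that rose, named after its values were seen, was Ifngr1, the ligand-binding chain of the interferon gamma receptor, at 215 ± 3.70 against 128 ± 26.3 CPM (0.75, SE 0.146, edgeR adjusted p = 0.018). Its call was lost when any 1 TMRM-high library was left out. With 1 library left out the number of effectors that fell ran from 19 to 39 and that of signalling genes from 3 to 8. The lowest values came without TMRM-high replicate 1, for signalling genes also without TMRM-high replicate 2.

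**Figure D4:**
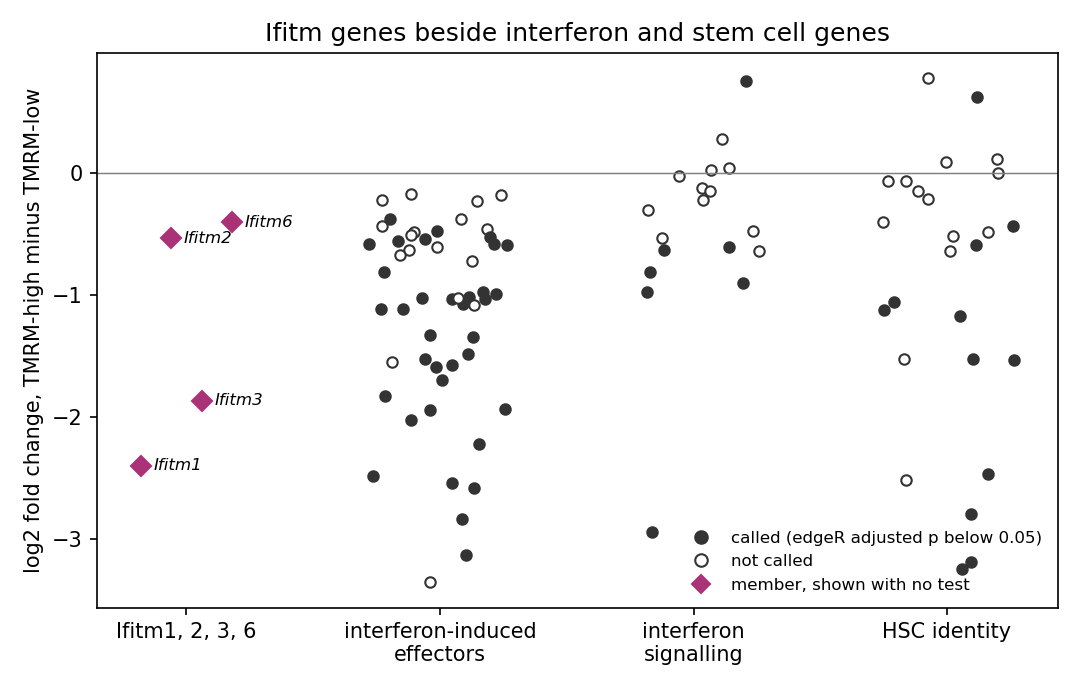
Log2 fold change of TMRM-high minus TMRM-low libraries (y axis) for the 4 members and for each tested gene of 3 lists (x axis, points spread sideways for legibility). Filled points passed the edgeR test (adjusted p below 0.05), open points did not, and diamonds are the members, shown without a test. All 52 effector points lie below 0, while the signalling and HSC identity points lie on both sides of it.

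HSC identity genes were lower in part. Of 26 tested, 11 fell, against 5.12% of all tested genes, and 14 did not pass (median -0.56 beside -0.03 over all genes). The other 1 rose, no larger a share than the 5.84% of all tested genes, and with the TMRM-high libraries summed 2 fell and Gata2 did not pass. Ly6a, which encodes the sort marker Sca-1 and is itself induced by interferon, had 28.2, 30.3 and 32.6 CPM in TMRM-high against 163, 163 and 176 CPM in TMRM-low libraries (-2.47, SE 0.103, edgeR adjusted p = 1.0e-05). Its change was close in size to that of Ifitm1. Procr, the gene of the endothelial protein C receptor, had 3.54, 3.28 and 3.89 CPM against 44.1, 24.5 and 32.9 CPM (-3.25, SE 0.299, edgeR adjusted p = 0.00055). Hlf and Lmo2, transcription factor genes of stem cells, fell as well (-1.53, SE 0.108, edgeR adjusted p = 0.00016, and -0.59, SE 0.0498, edgeR adjusted p = 0.00035). Summing the TMRM-high libraries ended the calls of Procr and Lmo2. Kit, which encodes the sort marker c-Kit, had 260, 269 and 260 CPM against 253, 192 and 299 CPM and did not pass (0.08, SE 0.146, edgeR adjusted p = 0.78). The gene that rose was Gata2 (0.62, SE 0.0874, edgeR adjusted p = 0.0045), named after its values were seen.

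Markers of more mature blood cells differed between the groups too, some higher and some lower in TMRM-high libraries. Their part in the Ifitm, interferon and HSC gene differences was not tested. Of 20 granulocyte and monocyte genes 17 rose and 1 fell, against 5.84% and 5.12% of all tested genes. Their summed level was 16726 to 17109 CPM in TMRM-high against 4231 to 4526 CPM in TMRM-low libraries. Elane, the gene of neutrophil elastase, was at 3036 ± 78.3 against 232 ± 23.9 CPM (3.71, SE 0.0820, edgeR adjusted p = 7.1e-07). The gene that fell was Ccr2, a chemokine receptor gene of monocytes (-1.36, SE 0.198, edgeR adjusted p = 0.0055), named after its values were seen. Of 12 B lymphoid genes 11 rose with edgeR and with limma voom, and 12 at an unadjusted p under 0.05 and with DESeq2. None fell by any of these rules. The 12 genes summed to 2088 to 2109 CPM in TMRM-high against 548 to 630 CPM in TMRM-low libraries. Cd79a, which encodes a signalling chain of the B cell antigen receptor, had a mean of 98.6 ± 7.71 against 2.04 ± 1.13 CPM. Ms4a1, the gene of CD20, was low in both groups, at 0.771, 0.616 and 1.53 CPM in TMRM-high libraries and at 0 in the TMRM-low libraries. Its edgeR call was lost with limma voom and when any 1 TMRM-high library was left out.

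Erythroid genes summed to 617 to 642 CPM in TMRM-high against 641 to 772 CPM in TMRM-low libraries, and 6 of 12 rose and 1, Car2, fell. Car2 alone was at 316 ± 7.13 against 552 ± 54.5 CPM, so the erythroid sum largely follows this gene and hides the genes that rose. Megakaryocyte genes summed to 459 to 469 against 237 to 264 CPM, and 2 of 8 rose. T and NK cell genes summed to 640 to 651 against 408 to 481 CPM, and 1 of 9 tested rose (Nkg7) and 4 fell (Cd3d among them). Nkg7 alone was at 556 ± 6.18 against 218 ± 24.1 CPM. The summed levels of the 2 groups did not overlap for any of these 5 lists but the erythroid one. With the TMRM-high libraries summed, edgeR called 13 granulocyte and monocyte genes, 7 B lymphoid genes and 1 gene of each other list higher, against 0.525% of all tested genes, and Ccr2, Car2 and Cd3d did not pass.

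The genes whose pattern over the 6 libraries was most like that of each member were found by the root mean square distance of centred log2 CPM among 9968 genes with a mean of at least 5 CPM and a symbol other than that of a predicted or clone-named gene model. Since the members were chosen for their pattern, this is a description and no test is attached. For Ifitm1 the nearest genes were Rpl3 (distance 0.079), Ly6a (0.083), Tgtp1 (0.094), Rtp4 (0.13) and Ifi44 (0.14). Tgtp1 encodes an interferon-inducible GTPase, Ly6a, Rtp4 and Ifi44 are described above, and Rpl3 encodes a ribosomal protein. All 5 had a log2 fold change close to that of Ifitm1, from -2.58 for Rtp4 to -2.27 for Rpl3, so nearness here largely restates the difference. How many of the 9968 genes are interferon-induced was not counted, and no enrichment is read from these 5. Rpl3 had 573 ± 12.4 CPM in TMRM-high against 2767 ± 138 CPM in TMRM-low libraries, while its processed pseudogene Rpl3-ps1 had 1747 ± 27.6 and 3.62 ± 3.56 CPM. Added together the pair had 2320 ± 38.5 against 2771 ± 141 CPM (SD, n = 3). Reads can be divided between these copies, and how far that sets the likeness of Rpl3 to Ifitm1 was not tested.

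For Ifitm3 the nearest were Aldh7a1, an aldehyde dehydrogenase gene (distance 0.12), Tgtp2 (0.12), Dkkl1 (0.12), Pim2, a survival kinase gene (0.13), and Irgm2 (0.15). Tgtp2 and Irgm2 encode interferon-inducible GTPases. Tgtp1 and Tgtp2 are nearly identical genes whose reads can be divided between them. Tgtp2 had 99.6 ± 4.77 in TMRM-high against 341 ± 36.5 CPM in TMRM-low libraries, and Irgm2 9.03 ± 1.50 and 35.0 ± 2.63 CPM. For Ifitm2 the distances were smaller, from 0.032 to 0.044. Its nearest genes were Coro2a, an actin-binding coronin gene, Gng10, a G protein subunit gene, Farsb, a tRNA synthetase subunit gene, Utp6, a ribosome biogenesis gene, and Ly6e. Ly6e, an interferon-induced surface protein gene, had 513, 480 and 484 CPM against 723, 727 and 725 CPM. For Ifitm6 the nearest were Plod2, H2afy2, Dtnb, Zfp84 and Smim13 (0.14 to 0.16), of which Plod2, the nearest, had groups that overlapped.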

How the data were processed

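RNA of 3 TMRM-high and 3 TMRM-low libraries was sequenced as paired reads of 150 bases after 13 cycles of PCR, per the labels' protocols. Trim Galore 0.5.0, Salmon (listed as 0.03.1) and GRCm38 are named in the submitters' processing notes. For the annotation and settings the sources used here give nothing. The authors deposited estimated counts per gene for 28786 Ensembl IDs, not scaled to depth. They were rounded to whole numbers here. The labels' protocols describe no step that marks strand or adds molecular identifiers. Symbols and positions were matched for 27728 IDs in the GENCODE M21 annotation, and 1058 had none. Promoters are from RefSeq on GRCm38.p6, found for all 4 members.

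Genes were kept with edgeR's filterByExpr (13662 genes), scaled by TMM and fitted with edgeR 4.0.16's quasi-likelihood model with the group as the only term (R 4.3.3). Calls were made at a Benjamini-Hochberg adjusted p below 0.05 over all tested genes. CPM used the TMM-scaled library sizes. The SE is the log2 fold change divided by the square root of F. The fit was tested on simulated data. Other settings were DESeq2 1.42.0, limma voom (3.58.1) with quality weights, scaling by RLE, upper quartile or total count, no filter, a mean count of 50 or more, a block for the replicate number, each library left out, and the TMRM-high libraries or the Ifitm rows summed into 1.

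The members, the gene lists and the tests were chosen with earlier results of these data known. Genes were named by a rule: every Ifitm gene, up to 4 called genes with the smallest p per list (or up to 2 with the highest mean CPM where none was called), called or nearest cluster neighbours, the 5 genes most like each member, and the sort marker genes. Some genes that the rule gives are not reported here.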

Additional observations from a re-analysis of the deposited data

How the results depend on the processing

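The log2 fold changes of Ifitm1, Ifitm2, Ifitm3 and Ifitm6 were negative under every alternative run. With 1 library left out they ran from -2.45 to -2.34 for Ifitm1, -0.56 to -0.51 for Ifitm2, -1.90 to -1.80 for Ifitm3 and -0.80 to -0.06 for Ifitm6. Genes called higher numbered 798, with 1324 under DESeq2, 80 with the TMRM-high libraries summed and 250 to 1398 with 1 library left out. Genes called lower numbered 700, with 1337 under DESeq2, 34 with the TMRM-high libraries summed and 181 to 1174 with 1 library left out. Leaving out a TMRM-high library gave the low counts and leaving out a TMRM-low library the high ones. Of the interferon-induced effectors 35 were lower, 3 with the TMRM-high libraries summed and 19 to 39 with 1 library left out. Of the interferon signalling genes 6 were lower and 1 higher, then 1 and 0 with the TMRM-high libraries summed, and 3 to 8 and 0 to 1 with 1 library left out. No cluster neighbour was called lower in the main comparison, against 5.12% of all tested genes. There was 1 under upper-quartile scaling, total counts, no filter and a mean count of at least 50, 2 under DESeq2 and under limma voom, and 0 to 2 with 1 library left out (Sirt3 with Psmd13 without TMRM-low replicate 1, Sirt3 with Ric8a without TMRM-low replicate 2). The 1 neighbour called higher (Ifitm5) became 0 with a mean count of at least 50, where it is not tested, and with the TMRM-high libraries summed, and 0 to 1 with 1 library left out.

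Same-numbered libraries did not deviate together (correlations -0.03, 0.01 and 0.04 over 10358 genes), and the numbers are not taken as pairs. The TMRM-high libraries varied so little among themselves that this check cannot decide whether they are. With the replicate number as a block 582 genes were higher and 449 lower, and 29 effectors and 5 signalling genes were lower, with member values of -2.40 for Ifitm1, -0.54 for Ifitm2, -1.86 for Ifitm3 and -0.22 for Ifitm6. Apart from these counts, the cause of differences between settings was not tested. Depth limits Ifitm5, with 62 counts over the TMRM-high group and 1 over the TMRM-low group.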

Other observations

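Ifitm proteins belong to the dispanins, small proteins that span the membrane and share a fold. Of 6 other dispanin genes, 3 were tested and none was called by edgeR, at an unadjusted p under 0.05, by DESeq2 or by limma voom. Tmem91 had 8.94, 6.92 and 5.97 CPM in TMRM-high and 5.90, 2.18 and 5.77 CPM in TMRM-low libraries (log2 fold change 0.66, SE 0.480, edgeR adjusted p = 0.45). Trarg1, which takes part in glucose transporter trafficking, had 1.36, 0.872 and 0.903 CPM against 1.27, 1.62 and 0.816 CPM, groups that overlapped (-0.24, SE 0.580, edgeR adjusted p = 0.84). Among the genes without a test, Tmem233 was at 0 in all 6 libraries.

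Genes of enzymes that modify or sort Ifitm proteins differed less. Of 7 tested, 1 fell, where 5.12% of all tested genes did, and the median was -0.21 beside -0.03 over all tested genes. All 7 had a negative log2 fold change, where 52.8% of all tested genes did. At an unadjusted p under 0.05, 2 were lower, and with DESeq2 and with limma voom 1 was. None rose with edgeR, at an unadjusted p under 0.05, with DESeq2 or with limma voom. Vcp, which encodes a segregase that extracts ubiquitinated proteins and acts on ubiquitinated Ifitm3, had 410, 410 and 413 CPM in TMRM-high and 528, 502 and 518 CPM in TMRM-low libraries (-0.33, SE 0.0512, edgeR adjusted p = 0.0070). Leaving out any 1 TMRM-high library, or summing them, ended its call.

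Ifitm1 is known as a partner of the tetraspanin CD81. Cd81 had 172, 186 and 183 CPM in TMRM-high and 202, 218 and 172 CPM in TMRM-low libraries and did not pass (-0.13, SE 0.0998, edgeR adjusted p = 0.49). Cd9, another tetraspanin gene, rose from 48.8 ± 10.2 to 119 ± 4.82 CPM (1.29, SE 0.163, edgeR adjusted p = 0.0029) and lost its call with the TMRM-high libraries summed.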
